A study of Homo sapiens with 4 samples.

Results

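This account concerns the ARID3B peaks that were called in both control and ARID3B-edited OECM1 cells and that neither KDM4C peak list contained. They were chosen by overlap: an autosomal peak of the control ARID3B list was taken when it shared at least 1 bp with a peak of the edited ARID3B list and no base with any peak of the control or edited KDM4C list. The rule found 185 such peaks among the 3095 autosomal peaks of the control ARID3B library (5.98%), and among 11483 peaks in the 4 lists together. They are called shared KDM4C-free peaks here. OECM1 is a cell line established from a cancer of the head and neck. The control cells received Cas9 with a control construct and the edited cells received Cas9 directed at ARID3B, and chromatin of each was precipitated with an antibody against ARID3B or KDM4C, which gave 4 groups of 1 library. The sample titles call the edited cells a knockdown and the series title a knockout; whether they were a clone or a pool, and how much ARID3B they kept, is not given in the sources used here. With 1 library a group, no difference has a replicate check, no test was run, and the 95% intervals below are exact Clopper-Pearson intervals that cover counting error only.

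ARID3B belongs to a family of DNA-binding proteins that share the AT-rich interaction domain, a fold that contacts the grooves of AT-rich DNA, and its close relative ARID3A is known as a regulator of immunoglobulin genes in B cells. ARID3B is known for roles in embryonic development and in the growth of tumour cells. KDM4C is a histone demethylase that removes methyl groups from lysines of histone H3, including the marks of silenced chromatin. A peak called with the ARID3B antibody and not with the KDM4C antibody is a place where the first library alone passed the caller's threshold. It is not a measurement that KDM4C was missing there.

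The peak caller judged each library against its own surroundings, without an input library, and gave each peak a score of minus 10 times the log10 of its p-value, with 50 as the lowest score allowed. With at most 1 tag kept at a position, there were 24439463 (control) and 20878112 (edited) tags for ARID3B, against 20668533 and 16209985 for KDM4C. The lists used to exclude peaks thus came from the shallower libraries. The edited ARID3B list was also the longer, with 4577 autosomal peaks. Coordinates are in GRCh37. A genome and gene annotation of that build were not used here, so genes, repeats and sequences at the peaks are not described.

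Peaks without KDM4C were rarely found again. Over all autosomal control ARID3B peaks, 22.8% were called again in edited cells. Among the 2487 that overlapped no KDM4C peak (80.4% of the autosomal list) the 185 made up 7.44%, and among the 608 that did overlap one, 522 were called again (85.9%). These shares are what the rule selected on and are given as a description. Seen from the other side, of the 707 autosomal peaks called again, 26.2% lacked KDM4C. Shares within a class of score are likewise a description, since peaks of like score were not matched for surroundings or position. Of control peaks scoring from 50 to 60, 64 of 1717 without KDM4C were called again (3.73%, 2.88 to 4.74), against 61 of 93 with KDM4C (65.6%, 55.0 to 75.1). From 80 to 100 the shares were 28 of 98 (28.6%, 19.9 to 38.6) and 59 of 70 (84.3%, 73.6 to 91.9). Among the few strong peaks without KDM4C the share rose further, to 15 of 31 (48.4%) for scores from 100 to 150 and 5 of 9 (55.6%) from 150 to 200.

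The shared KDM4C-free peaks were mostly weak. Their score in control cells ran from 50.2 to 240 with a median of 66.1, and 22 of 185 (11.9%) reached 100, close to the 11.1% of all autosomal control peaks that did. The shared peaks with KDM4C had a median of 115, and 300 of 522 (57.5%) reached 100. Control peaks found neither in edited cells nor with KDM4C had a median of 55.3, and 20 of 2302 (0.87%) reached 100. In edited cells the overlapping peaks of the 185 scored a median of 66.6. In 77 of 185 (41.6%) the score stayed under 70 in both cells, against 42 of 522 (8.05%) of the shared peaks with KDM4C. Scores of the 2 libraries were only loosely related over the 185 (Spearman rho 0.35) and more closely over the 522 (0.73). Both sets are cut off at 50, but control scores of the 185 had the narrower range. Their upper quartile was 80.9 and their highest 240, against 220 and 3100 for the 522. Whether this range lowered the first value was not tested. Of the 143 autosomal peaks called again with a score of 200 or more, 2 lacked KDM4C.

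**Figure D1:**
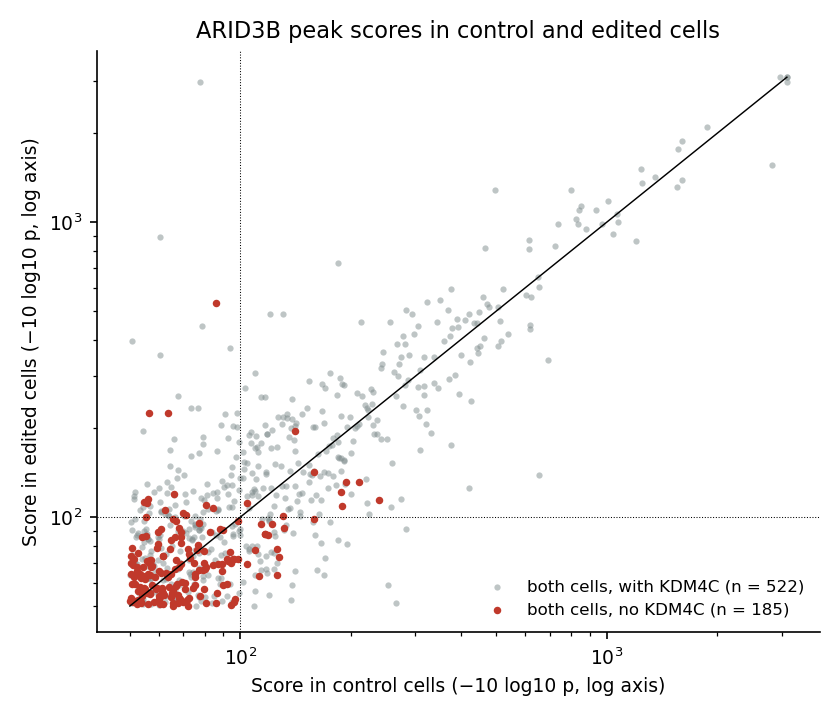
Score in control cells (x axis) and in edited cells (y axis) of each autosomal ARID3B peak called in both, on log axes; red points are the 185 peaks without KDM4C, grey points the 522 with KDM4C, the line marks equal scores and the dotted lines a score of 100. Red points crowd the lower left corner, and 9 of them lie at or above 100 on both axes.

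These 9 peaks, a set taken after the values were seen, are the only ones of the 185 that scored at least 100 in both libraries. The highest score lay on chromosome 1 from 148847958 to 148850812, a broad peak of 2855 bp with 283 tags and a score of 240 in control cells and 120 tags and 114 in edited cells. This control peak overlapped 2 edited peaks, of which the one with more overlap is given, and the 2 summits lay 1215 bp apart. On chromosome 7 from 30155036 to 30156015 there were 81 tags (score 211) in control and 29 tags (132) in edited cells. On chromosome 6 from 26798370 to 26799292 there were 61 tags (194) and 33 tags (132). The control peaks were called over a longer stretch at all 3 places, with 1483, 496 and 542 bp in edited cells. Per kb of peak, the chromosome 1 place had 4.06 tags per 1000000 filtered tags in control and 3.88 in edited cells. The chromosome 7 place had 3.38 and 2.80 on this scale, and the chromosome 6 place 2.70 and 2.92.

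On chromosome 5 from 177388438 to 177389228 the counts were 62 tags (score 189) in control and 31 tags (109) in edited cells. On chromosome 6 from 58198919 to 58200013 they were 70 tags (188) and 36 tags (122). On chromosome 16 from 544723 to 545142 they were 33 tags (131) and 25 tags (101). On chromosome 15 from 94786380 to 94786821 there were 30 tags (159) and 28 tags (142), and the nearest KDM4C peak lay 3606177 bp away. On chromosome 19 from 59116966 to 59117459, 11524 bp from the end of the chromosome, there were 29 tags (104) and 23 tags (111). On chromosome 18 from 77772965 to 77773073 there were 12 tags (141) and 16 tags (196), the only one of the 9 with a higher tag count in edited cells. That peak had no other control ARID3B peak within 56905504 bp and no KDM4C peak within 27453609 bp.

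Ranked instead by the lower of the 2 fold enrichments (the height of the peak over the caller's local background, the authors' own value for each list), the leading peak lay on chromosome 5 from 90446014 to 90446180, with a fold enrichment of 17.98 in control and 21.3 in edited cells from 14 and 15 tags. Chromosome 6 from 170461308 to 170461731 had 15.4 and 15.2 from 24 and 18 tags. Chromosome 1 from 2371731 to 2372212 had 16.5 and 13.7 from 36 and 23 tags. The chromosome 18 and chromosome 15 peaks described above, at 15.4 and 26.2 and at 22.8 and 13.1, were the second and the eighth in this order, so the rankings by fold enrichment and by score have peaks in common. The chromosome 18 values carry the limit that no background could be recovered there in either library.

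The number of fragments stacked at a summit could be worked back from the deposited values, and it was low across the class. Among the 185, the summit held a median of 11 fragments in control cells (lowest 6, upper quartile 14) and 9 in edited cells, against 21 and 20.8 for shared peaks with KDM4C. At the leading peak on chromosome 5 it held 14 and 13. At 23 peaks the recovered background was within 5% of the genome mean, the lowest value it took, in both libraries. In 22 of these no summit was above 12 fragments in either. Chromosome 5 from 134531427 to 134531688 is such a peak, with summits of 10 and 9 fragments and fold enrichments of 12.85 and 14.7. Another, on chromosome 4 from 190191419 to 190191626, had summits of 10 and 8. Equal fold enrichments recur in the list for this reason, since each added fragment moves the value by a fixed step.

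Tag counts of the 185 ran from 10 to 1841 in control cells with a median of 21, and from 9 to 3130 with a median of 17 in edited cells. In 49 peaks neither library had more than 15 tags, and 6 had 100 tags or more in both. The top of the range is a single place on chromosome 10 from 42386872 to 42389818, with 1841 and 3130 tags, a background 60.1 and 61.8 times the genome mean and fold enrichments of only 3.38 and 3.97. A KDM4C peak began 6 bp from its edge. This control peak overlapped 2 edited peaks, of which the one with more overlap is given, and the 2 summits lay 3126 bp apart. All 185 together held 6.45% of the tags in autosomal control ARID3B peaks, and the 522 with KDM4C held 58.8%.

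The shared KDM4C-free peaks were wider than the control-only ones and narrower than the shared peaks with KDM4C. Their median length was 375 bp (109 to 4523) in control cells and 323 bp in edited cells. It was 273 bp for the 2302 control-only peaks without KDM4C and 470.5 bp for the shared peaks with KDM4C. A wider peak overlaps more easily, and the share called again among peaks without KDM4C was 7 of 111 (6.31%) under 200 bp and 40 of 1398 (2.86%) at 200 to 300 bp, then higher in each longer class, with 42 of 177 (23.7%) at 500 to 1000 bp and 14 of 33 (42.4%) beyond. At scores from 50 to 60, where few tags are present, the medians were 355.5 bp for the shared and 262 bp for the control-only peaks without KDM4C.

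Local background is the caller's expected tag density around a peak relative to the genome mean. Here too the class lay between control-only peaks without KDM4C and shared peaks with KDM4C. The median background in control cells was 1.56 at the 184 shared KDM4C-free peaks where it could be recovered. It was 1.15 at control-only peaks without KDM4C and 2.67 at shared peaks with KDM4C. A background of at least 2 was found at 65 of 184 (35.3%, 28.4 to 42.7), at 184 of 2298 (8.01%) and at 317 of 505 (62.8%). The 86 control-only peaks with KDM4C were much like the class, with a median of 1.51 and 30 of 86 (34.9%) at 2 or more. Conversely, of the 249 KDM4C-free control peaks on such a background 26.1% were called again, against 3.44% of the 901 within 5% of the genome mean. Tags within a peak also count towards its surroundings, and how far this raised the values was not tested. Within the 185, the 65 on a background of at least 2 had a median length of 670 bp and 45 tags, and the 31 at the genome mean had 293 bp and 13 tags.

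The summits of the 2 libraries lay close together at most, but not all, of these peaks. The overlap that the rule asks for already limits this distance, at median lengths of 375 bp in control and 323 bp in edited cells. The median distance between the control and the edited summit was 38 bp, and 112 of 185 were within 50 bp (60.5%, 53.1 to 67.6). At shared peaks with KDM4C the median was 12.5 bp and 393 of 522 were within 50 bp (75.3%, 71.4 to 78.9). The edited summit lay downstream in 97 of 185 (52.4%), so there was no general shift to either side. At 3 peaks both summits were at the same base. Of the 22 peaks with summits more than 200 bp apart, 19 had a peak of 500 bp or more in at least 1 library.

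The classes also stood apart among narrow peaks. Where both peaks were under 500 bp, 82 of 126 shared KDM4C-free peaks (65.1%, 56.1 to 73.4) and 225 of 250 with KDM4C (90.0%, 85.6 to 93.4) had summits within 50 bp. With at most 20 tags in each library as well, a limit set after the values were seen, the shares were 58 of 86 (67.4%, 56.5 to 77.2) and 73 of 82 (89.02%, 80.2 to 94.9). Examples of close summits are chromosome 5 from 90446014 to 90446180, at 8 bp, and chromosome 7 from 57949248 to 57949491, at 2 bp. Both were named for their fold enrichment and do not stand for all narrow peaks.

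**Figure D2:**
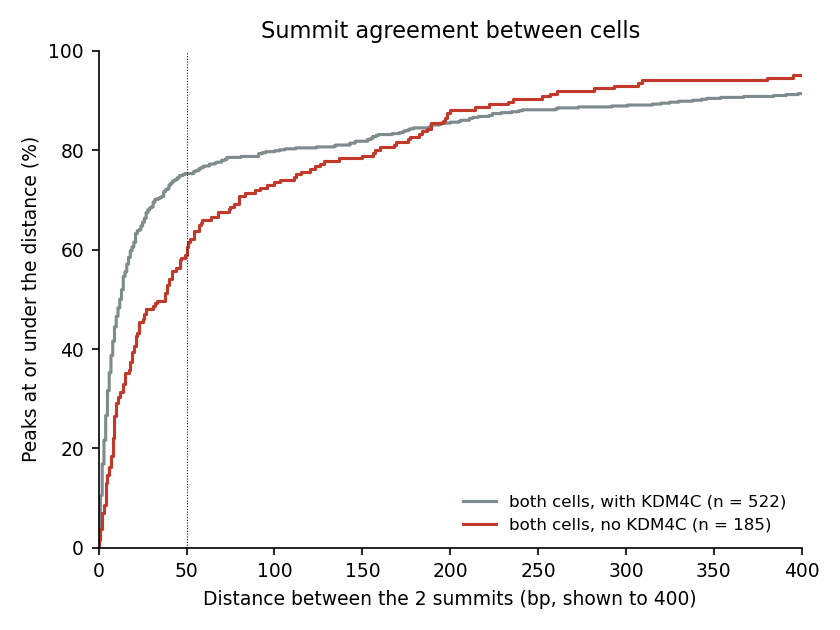
Cumulative share of peaks (y axis, %) by the distance between the control and the edited summit (x axis, bp), for the 185 shared peaks without KDM4C (red) and the 522 with KDM4C (grey); the dotted line marks 50 bp. At 50 bp the red curve stands at 60.5% and the grey one at 75.3%, and at 100 bp they stand at 73.5% and 79.9%. At 200 bp the order is reversed, at 88.1% and 85.6%.

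How the tags at the shared KDM4C-free peaks compared between the libraries depended on whether the called length was taken into account. Each count is a sum over a peak called separately in each library, and the edited peak was the wider at 57 of 185 (30.8%). Tags were scaled to depth, as tags per 1000000 filtered tags. The median of these scaled tags was 0.859 in control and 0.814 in edited cells, and the median log2 ratio of edited over control was -0.04. Scaled tags were higher in edited cells at 87 of 185 (47.0%, 39.7 to 54.5). Divided by the length of each peak as well (a measure added once the sums had been seen), the medians were 2.30 per kb in control and 2.67 per kb in edited cells, the median log2 ratio was 0.20, and 147 of 185 were higher in edited cells (79.5%, 72.9 to 85.0). At shared peaks with KDM4C the median log2 ratio of the sums was 0.23 and 370 of 522 were higher (70.9%, 66.8 to 74.7). Per kb it was 0.30, with 421 higher (80.7%, 77.0 to 84.0). By sums, within scores of 50 to 60 the medians were 0.13 and 0.46, from 60 to 100 they were -0.05 and 0.23, and from 100 to 200 they were -0.42 and 0.16. Both classes were taken from control peaks and had to pass the threshold in edited cells too, which sets limits on these ratios. No test of the difference was run.

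Among all 707 peaks called again, 14.9% had at least 1.5 times more scaled tags in edited cells and 10.3% at least 1.5 times fewer. For the 185 the counts were 13 (7.03%, 3.79 to 11.7) and 29 (15.7%, 10.8 to 21.7). The lowest ratios belonged to peaks called over a longer stretch in control cells. Chromosome 8 from 126950707 to 126955229 had 393 tags in control and 102 in edited cells (log2 ratio -1.72), over 4523 and 1355 bp, and per kb its scaled tags were 3.56 and 3.61. Chromosome 11 from 65601263 to 65602423 had 70 and 24 (-1.32) over 1161 and 430 bp, and per kb 2.47 and 2.67. The highest ratio was at chromosome 20 from 29804345 to 29804719, with 20 tags in control cells and 72 in the edited peak of 992 bp that overlapped it (2.08), or 2.18 and 3.48 per kb. That edited peak also covered a neighbouring control peak with 24 tags, so the same 72 tags were set against each. In all, 4 edited peaks served as the counterpart of 2 control peaks each, and 6 control peaks overlapped 2 edited peaks.

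**Figure D3:**
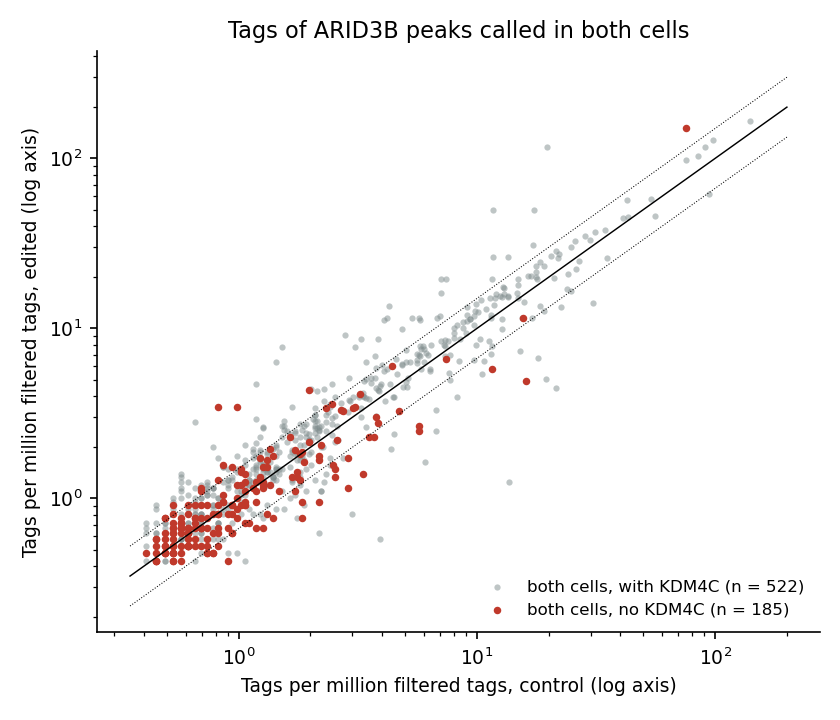
Tags per 1000000 filtered tags in control (x axis) and edited cells (y axis), log axes, for the 185 shared ARID3B peaks without KDM4C (red) and the 522 with KDM4C (grey); the solid line marks equal values and the dotted lines a ratio of 1.5 either way. Of the red points 87 lie above the solid line, and of the grey points 370; the tags are sums over peaks whose lengths differ between the libraries.

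Position was not part of the rule beyond the use of autosomes. The peaks lay on 21 of the 22 autosomes, with 28 on chromosome 1, 19 on chromosome 2, 15 on chromosome 9, 14 on chromosome 5 and none on chromosome 22, where 27 control peaks lacked KDM4C. The share of KDM4C-free control peaks called again was highest on chromosomes 18 (3 of 18, 16.7%), 21 (5 of 35, 14.3%) and 2 (19 of 139, 13.7%, 8.43 to 20.5), and low on chromosomes 3 (5 of 148, 3.38%, 1.11 to 7.71), 12 (3 of 83, 3.61%) and 13 (1 of 29, 3.45%). Only chromosome 2 had an interval that left out the 7.44% of all autosomes. Among 22 intervals, 1 such case does not by itself single out a chromosome, and the intervals treat neighbouring peaks as independent. On chromosome 2, 10 of the 19 were within 5 Mb of the centromere. Chromosome 13, which had 188 ARID3B peaks in edited cells, contributed 1 peak, from 101104034 to 101104371, with 16 tags in each library.

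**Figure D4:**
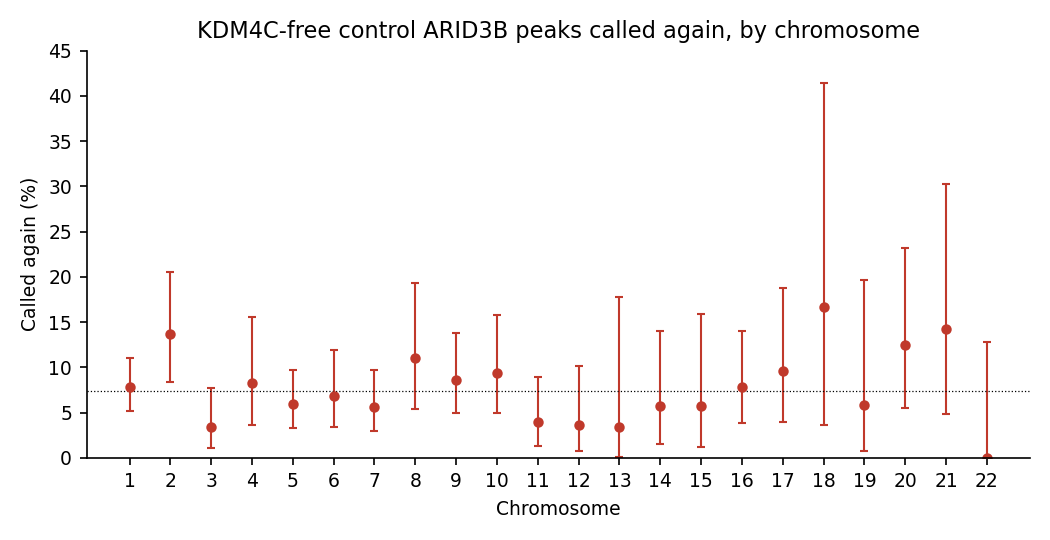
Share of control ARID3B peaks without KDM4C that were called again in edited cells (y axis, %) on each autosome (x axis), with exact 95% intervals as bars; the dotted line is the share over all autosomes, 7.44%. Every interval but that of chromosome 2, which starts at 8.43%, spans the line.

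Near centromeres the class was more frequent than the control-only peaks without KDM4C and less frequent than peaks with KDM4C, called again or not. Over all autosomal control peaks, 19.5% lay within 5 Mb of a centromere gap of the build. Of the 185, 46 did (24.9%, 18.8 to 31.7), against 255 of 2302 control-only peaks without KDM4C (11.1%, 9.82 to 12.4) and 263 of 522 shared peaks with KDM4C (50.4%, 46.0 to 54.8). The order was the same at scores from 50 to 60, with 17.2%, 9.44% and 44.3%. Of the 86 control-only peaks with KDM4C, 41 lay within 5 Mb (47.7%, 36.8 to 58.7). Of the KDM4C-free control peaks in this zone 46 of 301 were called again (15.3%, 11.4 to 19.9), against 139 of 2186 elsewhere (6.36%, 5.37 to 7.46). Within 2 Mb of a chromosome end lay 18 of the 185 (9.73%, 5.87 to 14.9), 102 of 2302 control-only peaks (4.43%) and 50 of 522 shared peaks with KDM4C (9.58%). The other 121 of the 185 (65.4%) lay in neither zone.

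The long arms of chromosomes 1 and 9 held 2 further groups that the 5 Mb zone leaves out. No library had a peak on chromosome 1 for 21.05 Mb up to position 142535483 or on chromosome 9 for 18.2 Mb up to position 65517407. Whether tags could be placed in these stretches was not examined, so the lack of peaks there cannot be read as a lack of signal. Past them, in spans chosen after the values were seen, chromosome 1 from 142 to 150 Mb held 9 of the 185 among 33 KDM4C-free control peaks (27.3%, 13.3 to 45.5). Chromosome 9 from 65 to 71 Mb held 8 among 35 (22.9%, 10.4 to 40.1). The median background of these shared peaks was 2.28 and 2.67 times the genome mean. They are counted among the 121 that lay in neither zone.

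Control ARID3B peaks of the class had closer neighbours than control-only peaks without KDM4C. Another control ARID3B peak lay within 10 kb of 55 of the 185 (29.7%, 23.2 to 36.9), of 148 of 2302 control-only peaks without KDM4C (6.43%, 5.46 to 7.51) and of 297 of 522 shared peaks with KDM4C (56.9%, 52.5 to 61.2). The median gap to the nearest was 48286 bp, 225704 bp and 5845 bp. At scores from 50 to 60 the shares within 10 kb were 16 of 64 (25%), 5.38% and 49.2%. The 86 control-only peaks with KDM4C had closer neighbours than the class, with 35 of 86 (40.7%) within 10 kb and a median gap of 16439 bp. With 10 or more other control peaks within 500 kb of the summit, 45 of 175 KDM4C-free peaks were called again (25.7%, 19.4 to 32.9). With none, 33 of 700 were (4.71%, 3.27 to 6.56). Those 33 isolated peaks had a median of 15 tags in control and 14 in edited cells, and 22 of them had summits within 50 bp.

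**Figure D5:**
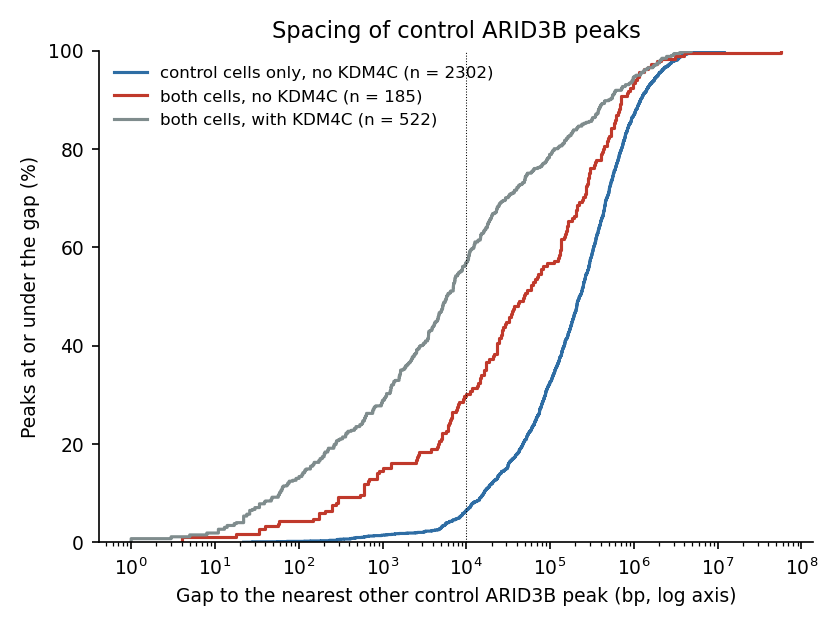
Cumulative share of peaks (y axis, %) by the gap to the nearest other control ARID3B peak (x axis, bp, log axis), for control-only peaks without KDM4C (blue, 2302), shared peaks without KDM4C (red, 185) and shared peaks with KDM4C (grey, 522); the dotted line marks 10 kb. At that gap the curves stand at 6.43%, 29.7% and 56.9%.

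Another of the class lay within 1 Mb of 71 of the 185 (38.4%, 31.3 to 45.8). A shared KDM4C-free peak also lay within 1 Mb of 267 of 522 shared peaks with KDM4C (51.1%), 448 of 2302 control-only peaks without KDM4C (19.5%) and 26.4% of all autosomal control peaks. For control-only peaks with KDM4C the count was 32 of 86 (37.2%), near that of the class. The 185 fell in 148 windows of 1 Mb, of which 127 held 1 of them and 10 held 3 or more. The fullest window, on chromosome 2 from 91000001 to 92000000, held 6 of them among 14 control peaks. Their tags ran from 26 to 60 in control and from 19 to 75 in edited cells, on a background 1.51 to 4.81 times the genome mean in control cells. The strongest of the 6, from 91659157 to 91659812, had 53 and 37 tags, scores of 119 and 87.1 and summits 10 bp apart. The window before it, from 90000001 to 91000000, held 4 among 17 control peaks. On chromosome 10 from 42000001 to 43000000 there were 4 among 23, of which 17 had KDM4C. They included chromosome 10 from 42533764 to 42534103, where 74 and 71 tags gave summits at the same base with 66.01 and 64.98 fragments. This tall stack had fold enrichments of only 7.57 and 7.97, on a background of 11.2 and 13.4, and a KDM4C peak 218 bp away.

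Being free of KDM4C by the rule did not exclude a KDM4C peak nearby. A KDM4C peak of either library was within 1 kb of 21 of the 185 (11.4%, 7.16 to 16.8) and within 10 kb of 51 (27.6%, 21.3 to 34.6). For control-only peaks without KDM4C the counts were 36 of 2302 (1.56%) and 145 of 2302 (6.30%). After the peak on chromosome 10 at 6 bp, the smallest gaps were on chromosome 11 from 1017077 to 1017580 (33 bp), chromosome 16 from 33866965 to 33867499 (41 bp) and chromosome 18 from 15224378 to 15224738 (65 bp). On chromosome 11 from 1212761 to 1213132 the gap was 121 bp, at a score of 117 in control and 87.7 in edited cells. The median gap of the 185 was 81913 bp, and 97 (52.4%) lay within 100 kb of a KDM4C peak. In each of the 185, the edited peak with the most overlap was also free of KDM4C, and in 183 so was every edited peak that overlapped.

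At the edge of the rule, overlaps of a few bases decided membership. The overlap between the libraries ranged from 5 to 2744 bp with a median of 287 bp, and covered at least 50% of the shorter peak in 174 of 185 (94.1%). The smallest was on chromosome 16 from 32344386 to 32345508, where 5 bp of a 1123 bp peak met an edited peak whose summit lay 1051 bp away. The next were 33 bp on chromosome 11 from 1017077 to 1017580 and 60 bp on chromosome 2 from 90484977 to 90485350. Just outside stood chromosome 9 from 105680513 to 105680793, a KDM4C-free control peak with 12 tags and a gap of 50 bp to an edited peak of 15 tags. Chromosome 10 from 135522319 to 135522651 missed by 54 bp, with 18 tags against 12. Within 100 bp of an edited peak lay 4 of the 2302 control-only peaks without KDM4C, and within 1 kb 47 (2.04%).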

How the data were processed

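ChIP-seq libraries of OECM1 cells were compared through their deposited peak lists, 1 per group; groups were taken from the sample titles. Per the file headers, the authors called peaks with MACS 1.4.2 in each library separately, without a control library, with 1e-05 as the largest p-value accepted, 2.7 Gb as the genome size, 10 kb for the local background and at most 1 tag at a position. The submitters' processing notes list GRCh37, bcl2fastq 2.1.5 and BWA 0.7.12. The deposited tag counts are whole tags per peak, not normalized. The deposited score is minus 10 times log10 of the p-value, and the deposited fold enrichment is a ratio to the caller's local background; deposited lengths and summit positions are in bases.

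Overlaps were computed in Python 3.11.15 with numpy 2.4.6, pandas 2.3.3 and scipy 1.17.1. A control peak with several edited counterparts was compared with the one it overlapped most. Gaps are the bases between 2 peaks. The background is the expected tag number at which a Poisson distribution gives the deposited score for the deposited tags, over the length of the peak (or 2 fragment lengths if longer), with fragment lengths of 86 and 79 bp for ARID3B. Tags were scaled to each library's filtered tags and, in a measure added after the sums were seen, also divided by the called length. Summit height is fold enrichment times background per fragment length, and was whole within 0.05 at 96.5% and 97.2% of the ARID3B peaks with a background. It could be solved at 98.0% to 98.9% of peaks, by library. Centromere gaps and chromosome lengths of GRCh37 were entered by hand; peaks of the 4 lists met these gaps in 8 cases, at their edges. The overlap and background steps were tested on simulated data.

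The members and the measures were chosen with earlier results of these data known. Regions were named by a written rule: the 12 highest by the lower fold enrichment, the highest score on each autosome, the smallest overlaps and nearest misses, the largest summit distances, the smallest gaps to KDM4C, the extreme tag ratios and the fullest windows, of which the text gives a part. The 9 peaks with a score of at least 100 in both cells were added after their values were seen. Shares carry exact 95% intervals, and peaks are not replicates of the cells. The alternatives tried covered the overlap, the score, the meaning of KDM4C-free, the chromosomes and the zone around centromeres.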

Additional observations from a re-analysis of the deposited data

How the results depend on the processing

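The rule was varied in 10 ways, one at a time, and 10 values were followed; 72 of the 100 alternative values stayed within 1.5 times the number of peaks or inside the 95% interval of the main value, and 28 did not. With a score of at least 100 in both ARID3B lists, 9 peaks were left: 21.4% of the KDM4C-free control peaks called again, a median score of 188, width of 791 bp, summit distance of 51 bp, background of 1.87 and log2 tag ratio of -0.66, with 44.4% of summits within 50 bp, 11.1% within 5 Mb of a centromere and 0% within 1 Mb of another. With a score of at least 60 in those lists, 83 peaks were left, 10.8% were called again, and the medians were 80.3 for score, 438 bp for width and 1.74 for background. With 60 in the KDM4C lists too, the values were 113, 13.6%, 79.4, 444 bp and 1.78. Matching by summits within 100 bp gave 5.55% called again, a median summit distance of 18 bp and 82.6% within 50 bp. Excluding only by the control KDM4C list gave 10.5% called again and 49.5% within 1 Mb of another. Without peaks near centromeres 6.36% were called again, 27.3% had another within 1 Mb, and 0% lay near a centromere by construction. The median log2 tag ratio, -0.04, turned to 0.05, 0.02 and 0.01 under control KDM4C only, 60 in every list and summit matching, and to 0.20 when tags were divided by the length of each peak, an alternative chosen after seeing the data, so its sign is not settled. The median summit distance, 38 bp, was 26.0 to 39.0 bp under the alternatives that did not use summits or a score of 100.

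No paired analysis was possible because each group had 1 library. On depth, the median summit held 11 fragments in control cells and the lowest 6, and the KDM4C libraries were shallower than the ARID3B libraries.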

Other observations

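Seen from the edited list, 189 of 3873 autosomal ARID3B peaks without KDM4C overlapped a control ARID3B peak (4.88%, exact 95% interval 4.22 to 5.61). The share was 69 of 2750 (2.51%) for scores from 50 to 60 and 21 of 34 (61.8%, 43.6 to 77.8) for scores of 100 or more. Of the KDM4C-free control peaks away from centromeres by 5 Mb or more and on a background within 5% of the genome mean, 26 of 839 were called again (3.10%, 2.03 to 4.51). Within the 185 shared KDM4C-free peaks, tags of the control and edited libraries had a Spearman rho of 0.84 and lengths one of 0.74 across peaks, which share libraries and both have a lower limit. The fold enrichment was higher in the edited list at 122 of 185 (65.9%, 58.6 to 72.7). Unscaled tags were higher there at 45 (24.3%, 18.3 to 31.2) and tags scaled to depth at 87 (47.0%, 39.7 to 54.5). Fold values are scaled to each library's own background and are not comparable as binding.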
